A study of Mus musculus with 6 samples.

Results

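Exocrine pancreas enzyme genes encode the digestive hydrolases that acinar cells release into pancreatic juice. The 9 genes described here are Cpa1, Cpb1, Cela1, Cela2a, Prss2, Ctrb1, Pnlip, Cel and Clps, taken as every non-control probe of the array that carries one of these gene names. They were chosen by name, not by level, and are read by 11 probes, out of 28032 genes named on the array. Medullary thymic epithelial cells are known to transcribe genes of many other organs, pancreatic enzymes among them, so that T cells developing in the thymus meet these proteins as self antigens. The regulators Aire and Fezf2 are known to promote such ectopic transcription, and mature medullary cells also carry the costimulatory ligand CD80. In the pancreas itself, the same genes depend on the acinar factor Ptf1a, which acts in a complex on a CANNTG element (an E-box) paired with a TTTCCC element.

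Gene expression was measured on 6 one-colour arrays of sorted thymic epithelial cells (TEC), stained as CD45- and EpCAM+, from C57BL/6 mice aged 4 weeks. All mice carried the BAC transgene Tg(Meis1-EGFP)FO156Gsat/Mmcd, in which EGFP reports Meis1, a homeobox transcription factor. The Meis1-high gate held small cells with bright EGFP (EGFPhigh FSClow), the Meis1-low gate held large, EGFP-intermediate ones (EGFPint FSChigh), and small EGFP-lacking cells (EGFP- FSClow) made up the Meis1-negative gate. Each gate was sampled in 2 pools of 6 mice. The reporter line is a single BAC line, and the gates follow EGFP rather than Meis1 itself. Meis1-low is the only gate of large cells. In its comparisons with Meis1-high and with Meis1-negative, reporter level and cell size differ together and cannot be told apart. Levels are log2 signals relative to the 75th percentile of the same array, so that 0 is the 75th percentile, and they are compared between gates for 1 probe at a time.

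The probes of Ctrb1, Prss2 and Cel are shown because they carry the comparisons that follow. Each is a 60-base oligonucleotide, printed 5′ to 3′ as the array files give it, with its position on mm9. The Ctrb1 probe lies at chr8:114212498-114212557, the Prss2 probe at chr6:41473937-41473996 and the Cel probe at chr2:28411609-28411668, on the minus strand for Ctrb1 and Cel and the plus strand for Prss2. Capitals in the Cel probe mark bases that recur 33 bases away, which holds for 20 of the 27 positions that can be compared.
Ctrb1 probe: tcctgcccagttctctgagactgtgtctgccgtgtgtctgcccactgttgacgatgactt
Prss2 probe: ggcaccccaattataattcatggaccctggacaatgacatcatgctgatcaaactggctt
Cel probe: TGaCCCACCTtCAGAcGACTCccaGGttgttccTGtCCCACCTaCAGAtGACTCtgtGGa
The sequence of each of the 11 probes occurs on 1 probe of the array. At its best ungapped alignment with the probes of the trypsin genes Try5, Prss3 and 2210010C04Rik, the Prss2 probe shared at most 55.0% of bases, over 20 bases. The mouse genome holds a family of near-identical trypsin genes, and how far their transcripts bind the Prss2 probe was not tested.

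Promoters are shown for Ctrb1, Pnlip and Cel, the genes that stood furthest apart between Meis1-high and Meis1-low by unadjusted p, and for Cela1, which was not reliably detected in any gate. RefSeq promoters (GRCm38.p6, 250 bases before to 50 after the start) matched 8 of the 9 genes. They are printed on the gene's strand, at chr8:111690961-111691260 (minus), chr19:58670115-58670414 (plus), chr2:28563354-28563653 (minus) and chr15:100687871-100688170 (minus). Capitals mark CACCTG (a form of the E-box), TTTCCC and TATAAA, on either strand.
Ctrb1 promoter: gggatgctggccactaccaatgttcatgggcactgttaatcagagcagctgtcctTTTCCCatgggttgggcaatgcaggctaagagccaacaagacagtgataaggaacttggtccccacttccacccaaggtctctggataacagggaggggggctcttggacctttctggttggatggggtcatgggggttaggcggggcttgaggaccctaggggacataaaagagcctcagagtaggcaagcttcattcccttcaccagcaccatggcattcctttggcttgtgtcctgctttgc
Pnlip promoter: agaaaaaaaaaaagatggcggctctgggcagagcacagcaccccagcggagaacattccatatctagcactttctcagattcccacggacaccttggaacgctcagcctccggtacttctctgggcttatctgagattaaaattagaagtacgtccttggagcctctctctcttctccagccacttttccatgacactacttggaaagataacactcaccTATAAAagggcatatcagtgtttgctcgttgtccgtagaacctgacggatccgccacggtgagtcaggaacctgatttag
Cel promoter: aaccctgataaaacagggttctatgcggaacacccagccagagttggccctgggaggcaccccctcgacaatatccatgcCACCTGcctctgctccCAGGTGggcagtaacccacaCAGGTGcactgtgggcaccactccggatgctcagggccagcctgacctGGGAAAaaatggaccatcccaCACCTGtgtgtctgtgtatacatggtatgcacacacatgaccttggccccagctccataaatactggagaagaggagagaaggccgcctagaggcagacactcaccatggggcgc
Cela1 promoter: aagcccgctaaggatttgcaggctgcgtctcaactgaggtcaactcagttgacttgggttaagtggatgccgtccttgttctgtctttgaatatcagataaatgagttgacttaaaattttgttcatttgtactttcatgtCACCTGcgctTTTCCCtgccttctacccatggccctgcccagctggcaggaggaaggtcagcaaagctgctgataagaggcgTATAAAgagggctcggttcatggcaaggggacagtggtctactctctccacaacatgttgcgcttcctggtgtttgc
TTTCCC occurred on either strand in 6 of the 8 promoters, against 25.2% of 27025 promoters in the table. CACCTG occurred in 5 of 8, against 20%, and TATAAA in 4 of 8, against 14.2%. In Cpb1 the TATAAA lies after the start. At 15 to 45 bases before the start on the gene's strand, TATAAA stood in 3 of 8 (Cela1, Prss2 and Pnlip), against 2.5%. CANNTG, which includes CACCTG, occurred in 7 of 8, against 72.1%. In the Cela1 promoter, CACCTG and TTTCCC stand 4 bases apart on the same strand. The Pnlip promoter held TATAAA 30 bases before the start and neither CACCTG nor TTTCCC, and a lack of these letters in the window says nothing further. These matches are a description of sequence, with no binding measured.

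The array signal at the 75th percentile ranged from 73.4 to 164.9, and 53.1% to 69.6% of spots were well above background by the scanner's own mark. Replicate 1 of every gate was on slide 1 and replicate 2 on slide 2, so replicate, slide and scan are the same block. All 14 thymic epithelial markers were above background on all 6 arrays, Epcam at 3.72 and 4.51 for Meis1-high, 4.31 and 4.79 for Meis1-low, and 2.59 and 4.41 for Meis1-negative. Meis1, which checks the gates, had levels of 0.24 and 0.12 for Meis1-high, -2.35 and -1.61 for Meis1-low, and -3.20 and -0.99 for Meis1-negative. Its difference was 2.16 ± 0.84 (Meis1-high minus Meis1-low; SE, 2 arrays per gate), with an adjusted p = 0.351 in limma. Meis1-low minus Meis1-negative was 0.12 ± 0.84 (adjusted p = 0.98 in limma; 0.85 and -0.62 on the slides), so Meis1 RNA did not separate these gates. A second Meis1 probe was above background on both Meis1-high arrays (-3.08 and -2.64), on Meis1-negative replicate 2 (-4.02) and on no Meis1-low array. Meis1-negative replicate 1 stood apart: its 15 thymocyte markers summed to a signal of 1190 times the 75th percentile, against 27.0 on replicate 2 and 9.86 to 14.2 on the other 4 arrays. On that same array the epithelial markers summed to 65.2, against 241 on replicate 2, 508 and 561 for Meis1-high, and 316 and 219 for Meis1-low. Results that use Meis1-negative are therefore given with and without this array.

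Of the 9 genes, 6 were tested (Ctrb1, Prss2, Cpb1, Pnlip, Cel and Clps), since their probes were well above background on both arrays of at least 1 gate. A probe counts as above background throughout when the scanner marked it so. Cpa1, Cela1 and Cela2a were not. By array, 4 and 6 of the 9 genes were above background in Meis1-high, 7 and 7 for Meis1-low, and 3 and 8 for Meis1-negative. Of all spots, 53.1% and 65.9% were above background in Meis1-high, 62% and 68% for Meis1-low, and 54.2% and 69.6% for Meis1-negative. The lowest counts thus fall on the arrays with the fewest spots above background. Meis1-high replicate 1 was also the dimmest array (75th percentile 73.4). All 6 tested genes had a lower mean level in Meis1-high than in Meis1-low, and a higher mean in Meis1-low than in Meis1-negative. No difference passed the test, which called 0% of 18221 genes for Meis1-high against Meis1-low, 0% for Meis1-high against Meis1-negative and 0% for Meis1-low against Meis1-negative (limma, adjusted p under 0.05). With 2 arrays per gate, the number of arrays limits the precision of every value.

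**Figure D1:**
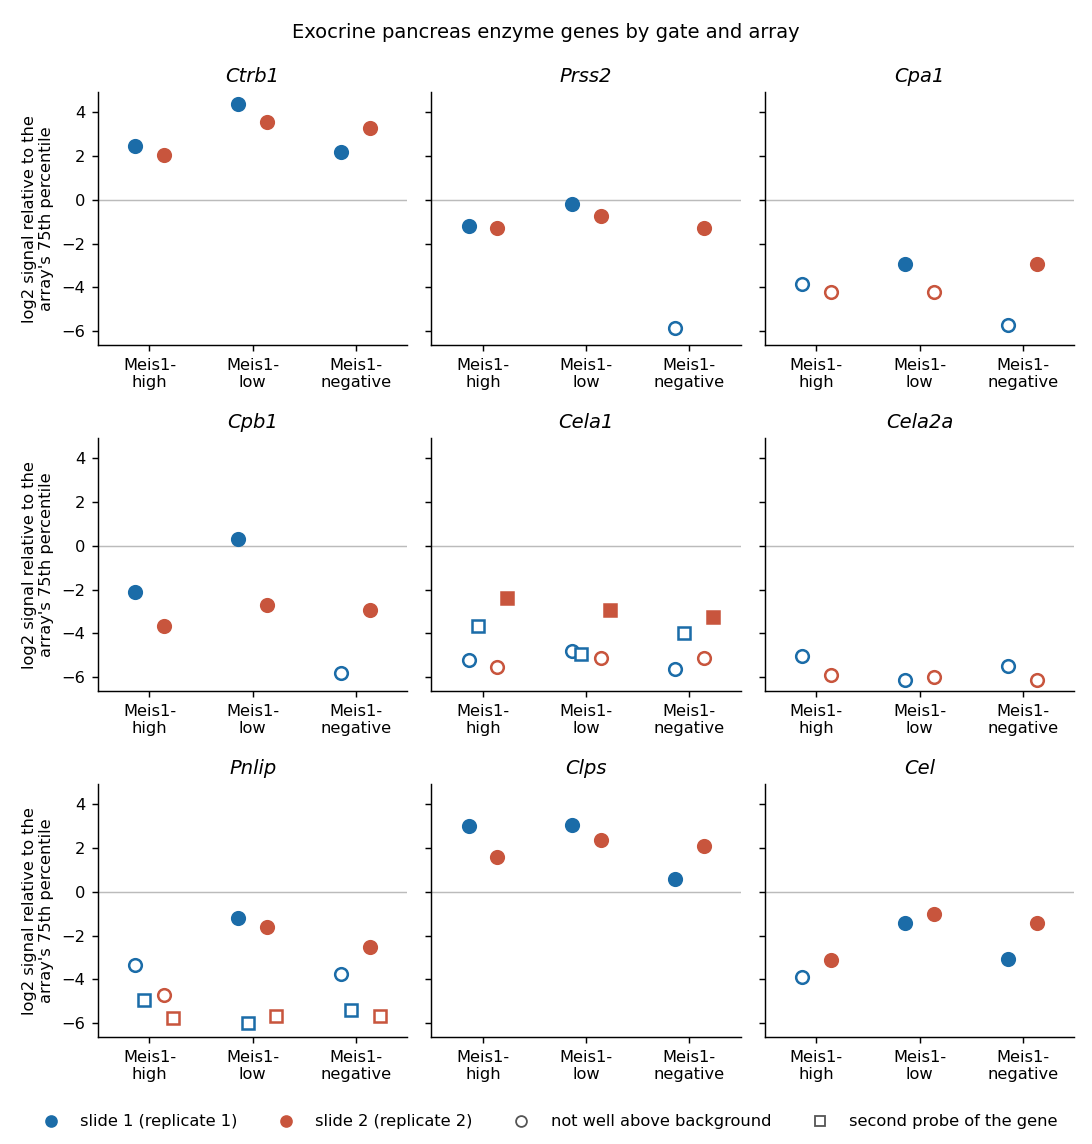
Level of each gene (log2 signal relative to the array's 75th percentile) by gate, 1 point per array, blue for slide 1 and red for slide 2, with open points not well above background and squares for a second probe. Ctrb1 and Clps were above background on all 6 arrays, the Meis1-low circles of Ctrb1, Prss2, Pnlip and Cel lie above their Meis1-high circles, and Cela2a has open points only.

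Among the serine proteases, Ctrb1 encodes chymotrypsinogen B, the precursor of a protease that cuts after aromatic residues. It had levels of 2.44 and 2.06 for Meis1-high, 4.38 and 3.55 for Meis1-low, and 2.20 and 3.27 for Meis1-negative. Both Meis1-low arrays were above every other array, while those of Meis1-high and Meis1-negative overlapped. Meis1-high minus Meis1-low was -1.71 ± 0.68 (SE, n = 2 per gate; -1.94 on slide 1 and -1.49 on slide 2), with an unadjusted p = 0.0388 and an adjusted p = 0.36 in limma. Meis1-low minus Meis1-negative was 1.23 ± 0.68 (adjusted p = 0.62 in limma), with 2.18 and 0.28 on the slides. Meis1-high differed from Meis1-negative by -0.48 ± 0.68 (adjusted p = 0.825 in limma), and the slides gave opposite signs, 0.24 and -1.21.

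Prss2 encodes an anionic trypsinogen, whose active form cuts after lysine and arginine and activates the other zymogens. Its levels were -1.20 and -1.28 for Meis1-high, -0.18 and -0.74 for Meis1-low, and -5.85 and -1.29 for Meis1-negative. The other 5 arrays lay close together, while Meis1-negative replicate 1, the array rich in thymocyte markers, was not above background and holds a surrogate value set by the scanner software. Between Meis1-high and Meis1-low the difference was -0.78 ± 1.33 (SE, 2 arrays per gate; adjusted p = 0.843 in limma), with no overlap of the arrays. Meis1-low minus Meis1-negative was 3.11 ± 1.33 (adjusted p = 0.608 in limma), a value that includes the surrogate. It was 2.03 with dim signals raised to the dimmest well-measured probe of their array, and 0.55 on slide 2. Meis1-high minus Meis1-negative was 2.33 ± 1.33 (adjusted p = 0.605 in limma), 1.25 with the raised signals and 0.01 on slide 2.

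Carboxypeptidases, which remove residues from the C-terminal end of peptides, are represented by Cpb1 and Cpa1. Cpb1, the pancreatic carboxypeptidase for basic residues (mm9, chr3:20149467-20149526), had levels of -2.12 and -3.68 for Meis1-high, 0.29 and -2.71 for Meis1-low, and -5.82 and -2.92 for Meis1-negative. Replicate 1 of Meis1-low was the highest array by a wide margin, replicate 1 of Meis1-negative was not above background, and the Meis1-high and Meis1-low arrays overlapped. Its Meis1-low replicates were 3.0 apart, the only gap over 4-fold among the 6 tested genes in that gate, where 6.81% of all genes had one. Meis1-high minus Meis1-low was -1.69 ± 1.30 (SE, 2 arrays per gate; adjusted p = 0.631 in limma), between -3.19 and -0.19 with an array left out. Meis1-low minus Meis1-negative was 3.16 ± 1.30, with an unadjusted p = 0.0433 and an adjusted p = 0.608 in limma. The Meis1-negative replicate 1 signal of Cpb1 is also a surrogate, and the difference was 2.09 with dim signals raised as for Prss2, and 0.21 on slide 2. Meis1-high minus Meis1-negative was 1.47 ± 1.30 (adjusted p = 0.735 in limma), 0.40 with the raised signals and -0.76 on slide 2.

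Cpa1, the carboxypeptidase for aromatic and branched residues (mm9, chr6:30595240-30595299), had levels of -3.84 and -4.22 for Meis1-high, -2.95 and -4.23 for Meis1-low, and -5.74 and -2.93 for Meis1-negative. Only replicate 1 of Meis1-low and replicate 2 of Meis1-negative were above background, so it was not tested. Cela1, a chymotrypsin-like elastase that cuts after small residues, has 2 probes. The one for its reference transcript (mm9, chr15:100515014-100515073) was above background on no array, with levels from -5.65 to -4.80. The other, for a cDNA clone (mm9, chr15:100515555-100515614), was above background on replicate 2 of each gate alone, where Meis1-high read -2.37, Meis1-low -2.93 and Meis1-negative -3.27. Cela2a, a second elastase, was above background on no array, and the scanner software had put a surrogate value in place of its signal on all 6. Its levels, from -6.13 to -5.03, are not ordered here, and its 60-base probe is listed over 300 bases of mm9 (chr4:141377348-141377647).

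The remaining members act on fat. Pnlip, the pancreatic triglyceride lipase, was not above background on either Meis1-high array (-3.33 and -4.71), and had levels of -1.20 and -1.61 for Meis1-low, and -3.77 and -2.51 for Meis1-negative, where replicate 2 alone was above background. Both Meis1-low arrays were above all others. Where a probe is above background on no array of a gate, only a bound can be given. The mean level of the brighter gate is set against that of the dim gate, whose signals are then set to the dimmest well-measured probe of their array if they lie under it. By that bound Pnlip stood at least 4.65-fold lower in Meis1-high than in Meis1-low, with an unadjusted p = 0.0102 and an adjusted p = 0.27 in limma for the measured levels. Meis1-low minus Meis1-negative was 1.74 ± 0.76 (SE, 2 arrays per gate; adjusted p = 0.608 in limma), with 2.57 and 0.90 on the slides. Against Meis1-negative no fold is given for Meis1-high, since the arrays overlapped and Pnlip was above background on only 1 of those 4 arrays (adjusted p = 0.732 in limma). A second Pnlip probe, for a cDNA clone (mm9, chr19:58748342-58748401), was above background on no array. Pnlip entered the test through Meis1-low alone, so its place among the tested genes depends on its level there.

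Cel encodes carboxyl ester lipase, the bile salt-dependent enzyme that hydrolyses cholesterol esters. It had levels of -3.89 and -3.10 for Meis1-high, where replicate 1 was not above background, -1.41 and -1.03 for Meis1-low, and -3.08 and -1.41 for Meis1-negative. The Meis1-high arrays were the lowest of the 6, and replicate 2 of Meis1-negative matched replicate 1 of Meis1-low. Meis1-high minus Meis1-low was -2.27 ± 0.76 (SE, n = 2 per gate; -2.48 and -2.06 on the slides), with an unadjusted p = 0.0188 and an adjusted p = 0.296 in limma. Meis1-high minus Meis1-negative was -1.25 ± 0.76 (adjusted p = 0.62 in limma; -0.81 and -1.69 on the slides). Cel was the only tested gene lower in Meis1-high than in Meis1-negative on both slides. Meis1-low minus Meis1-negative was 1.02 ± 0.76 (adjusted p = 0.692 in limma), with overlapping arrays.

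Clps encodes colipase, the cofactor that anchors pancreatic lipase to fat droplets (mm9, chr17:28695242-28695301). Its levels were 3.0 and 1.58 for Meis1-high, 3.04 and 2.38 for Meis1-low, and 0.60 and 2.10 for Meis1-negative. Colipase was above background on every array, unlike the lipase Pnlip, and its Meis1-high and Meis1-low arrays overlapped. Meis1-high minus Meis1-low was -0.42 ± 0.81 (SE, 2 arrays per gate; adjusted p = 0.862 in limma), with -0.03 and -0.80 on the slides, and turned to 0.29 without Meis1-high replicate 2. Meis1-low minus Meis1-negative was 1.36 ± 0.81 (adjusted p = 0.63 in limma; 2.44 and 0.28 on the slides). Meis1-high minus Meis1-negative was 0.94 ± 0.81 (adjusted p = 0.729 in limma; 2.40 and -0.52 on the slides).

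**Figure D2:**
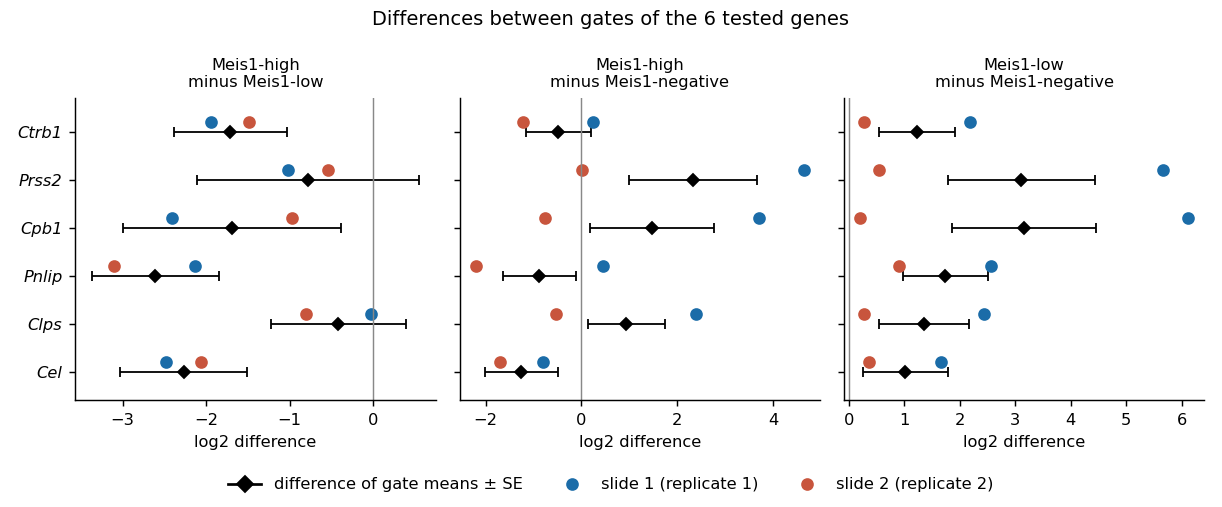
Log2 difference between gates of the 6 tested genes (x axis), as the difference of gate means ± SE (black, n = 2 arrays per gate) and within slide 1 (blue) and slide 2 (red). All points of Meis1-high minus Meis1-low are below 0 and all of Meis1-low minus Meis1-negative above it, while slides 1 and 2 fall on opposite sides of 0 for 4 of 6 genes in Meis1-high minus Meis1-negative. The Pnlip signals of Meis1-high were not well above background.

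Across the 6 tested genes, the median difference of Meis1-high minus Meis1-low was -1.70 (SD over members 0.84), -2.03 on slide 1 and -1.23 on slide 2, against a median of -0.15 over all 18221 genes tested. On slide 1 and on slide 2 alike, each of the 6 was lower in Meis1-high, as were 40.8% of all genes. The arrays of the gates did not overlap for 4 of the 6, Ctrb1, Prss2, Pnlip and Cel, against 31.1% of all genes lower in Meis1-high without overlap. An unadjusted p under 0.05 was reached by 3 of the 6, and by 12.9% of all genes. Pnlip is in each of these counts, and entered the test through Meis1-low alone, so its part in them depends on its level there. A filter on probes above background on at least 4 arrays removes Pnlip, and the median of the 5 genes left was -1.69. With all 9 genes and no filter on dim probes, 7 were lower in Meis1-high and the median was -0.78. It was -0.90 without Meis1-low replicate 1, and -0.68 with normexp background correction.

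Between Meis1-low and Meis1-negative, the median difference was 1.55 (SD over members 0.96), against 0.05 over all genes. The Meis1-low arrays enter this comparison and the one with Meis1-high, so the 2 results share samples. Each of the 6 was higher in Meis1-low on both slides (33.8% of all genes), and for all but Cel the arrays did not overlap (23.5% of all genes higher in Meis1-low without overlap). Pnlip is again counted through its level in Meis1-low, and the median of the 5 genes left by the filter on 4 arrays was 1.36. Without Meis1-negative replicate 1 the gene differences were 0.69 for Ctrb1, 0.83 for Prss2, 1.71 for Cpb1, 1.10 for Pnlip, 0.18 for Cel and 0.61 for Clps. The sizes differed by slide, with a median of 2.5 on slide 1, which holds the Meis1-negative array rich in thymocyte markers, and 0.33 on slide 2. Without that array the median was 0.76, and without the other Meis1-negative array 2.24. Between Meis1-high and Meis1-negative, 3 genes were higher and 3 lower, with a median of 0.23, 1.42 on slide 1, where 2 of the 6 Meis1-negative values are surrogates, and -0.98 on slide 2. Only Prss2 was higher in Meis1-high without overlap, against 19.3% of all genes. Leaving out replicate 1 of Meis1-negative gave a median of -0.50, and leaving out replicate 2 gave 0.87. With replicate 1 left out, Prss2 differed by 0.05, Cpb1 by 0.02, Clps by 0.19, Ctrb1 by -1.02, Pnlip by -1.51 and Cel by -2.09, of which Pnlip was not above background in Meis1-high. All 6 genes were lower on replicate 1 than on replicate 2 of Meis1-negative, where Prss2, Cpb1 and Pnlip were not above background on replicate 1.

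The order of the gates by mean level was Meis1-low highest for each of the 6 tested genes. Meis1-negative came next and Meis1-high last for Ctrb1, and the reverse held for Clps, though for both genes the slides gave opposite signs. Meis1-high and Meis1-negative are not ordered for Pnlip, Prss2, Cpb1 and Cel, whose levels there include arrays not above background. No neighbours in these orders differed past the test. In pooled cells, fewer cells that transcribe a gene and less RNA per cell cannot be told apart.

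Other acinar products were also mostly lower in mean level in Meis1-high than in Meis1-low. Of 46 other exocrine genes listed from pancreas biology, 36 were on the array and 30 were tested. In Meis1-high, 28 were lower than in Meis1-low and 2 higher, 24 lower on both slides (40.8% of all genes), with a median of -1.61 (-1.82 on slide 1 and -1.19 on slide 2). That median was -0.60 with normexp background correction, -1.10 with dim signals raised and -1.28 over probes above background on at least 4 arrays. Some of the 30, among them 2210010C04Rik and Reg3d, entered the test through Meis1-low alone, so these counts depend partly on levels there. With all 36 genes and no filter, 31 were lower and 5 higher, with a median of -1.19. For 23 of the 30 the Meis1-high arrays lay lower without overlap, against 31.1% of all genes. In Meis1-low, 28 were higher than in Meis1-negative and 2 lower, 26 higher on both slides (33.8% of all genes), with a median of 1.90 (2.87 on slide 1 and 0.67 on slide 2), or 0.86 without Meis1-negative replicate 1. None passed the test in any comparison (smallest adjusted p = 0.249 in limma), and 11 had an unadjusted p under 0.05 between Meis1-high and Meis1-low, against 2359 of all 18221 genes.

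**Figure D3:**
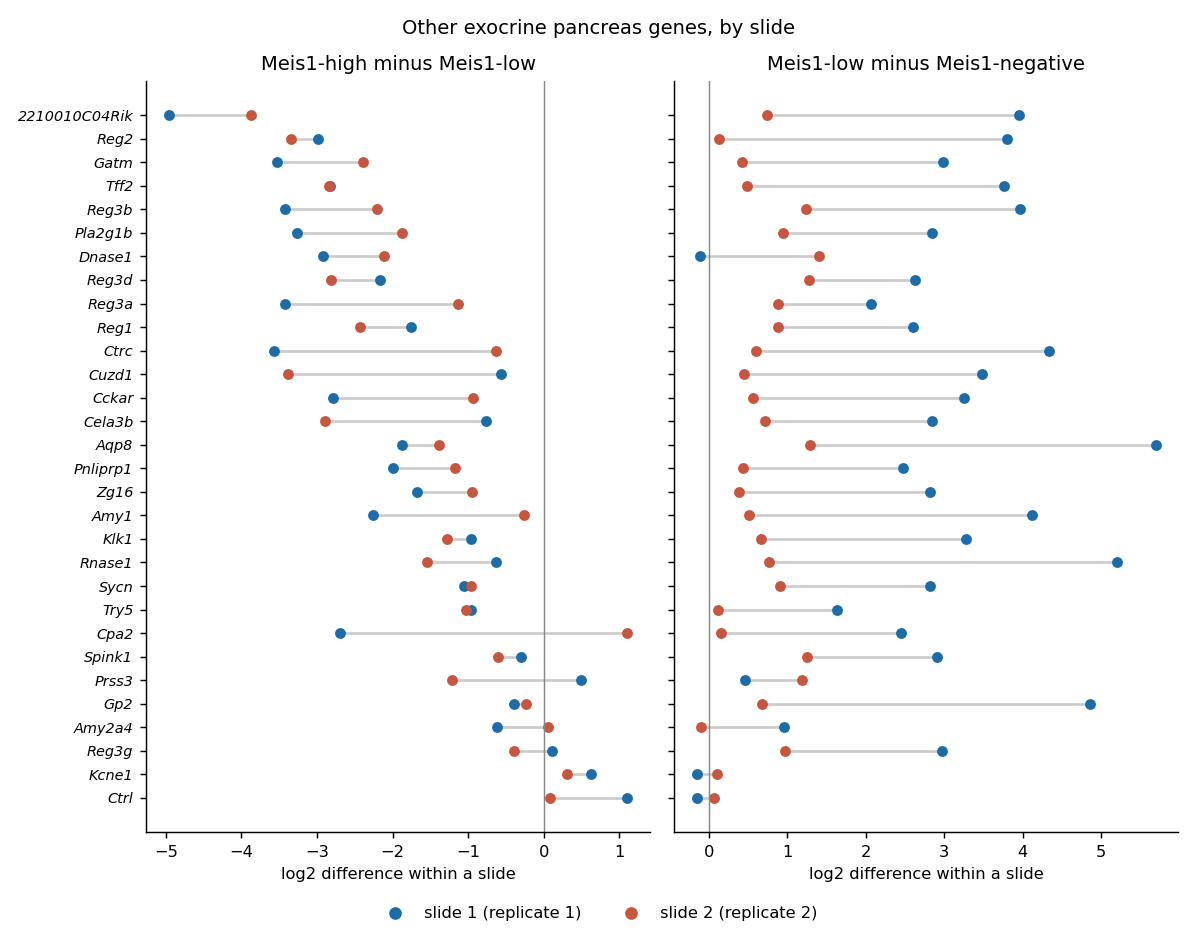
Log2 difference within slide 1 (blue) and slide 2 (red) for the 30 tested other exocrine genes, for Meis1-high minus Meis1-low (left) and Meis1-low minus Meis1-negative (right). Most genes lie below 0 on the left and above 0 on the right, where the slide 1 points extend further, and Kcne1 and Ctrl are the 2 genes higher in Meis1-high than in Meis1-low on both slides.

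Within that list, the trypsinogen-like gene 2210010C04Rik had levels of -5.28 and -5.92 for Meis1-high, -0.32 and -2.05 for Meis1-low, and -4.27 and -2.79 for Meis1-negative. It was above background on no Meis1-high array, and by the bound at least 5.42-fold lower there than in Meis1-low (adjusted p = 0.249 in limma). Like Reg3d, it entered the test through Meis1-low alone, so its place among the tested genes depends on its level there. The genes named by p from this list were picked in this same comparison, so their differences are not a separate result. Reg3b, Reg3a and Reg3d belong to the Reg family of secreted C-type lectins. Reg3b had levels of -1.29 and -0.57 for Meis1-high, 2.14 and 1.63 for Meis1-low, and -1.82 and 0.40 for Meis1-negative. Meis1-high minus Meis1-low was -2.82 ± 0.85 (SE, 2 arrays per gate; adjusted p = 0.278 in limma) for Reg3b and -2.28 ± 0.72 (adjusted p = 0.29) for Reg3a. Reg3d came out at least 1.12-fold lower in Meis1-high (adjusted p = 0.255 in limma). That bound rests on slide 2. On slide 1 the Meis1-low level of Reg3d (-3.37) lay under the dimmest well-measured probe of the Meis1-high array (-3.21).

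Tff2, a trefoil peptide of mucous secretions, had levels of -1.51 and -2.47 for Meis1-high, 1.32 and 0.38 for Meis1-low, and -2.44 and -0.11 for Meis1-negative. Its arrays did not overlap between Meis1-high and Meis1-low, which differed by -2.84 ± 0.91 (SE, 2 arrays per gate; adjusted p = 0.291 in limma). Dnase1, the secreted deoxyribonuclease, came out at least 2.63-fold lower in Meis1-high than in Meis1-low (adjusted p = 0.27 in limma). The probe of pancreatic amylase, Amy2a5, one of several near-identical amylase copies, was above background on Meis1-high replicate 2 alone and was not tested, with levels of -3.21 and -2.55 for Meis1-high, -4.36 and -4.05 for Meis1-low, and -3.97 and -4.19 for Meis1-negative. The listed genes Pnliprp2, Serpini2, Pdia2 and Tmed6 were above background on no array.

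Acinar transcription factors were split in direction between Meis1-high and Meis1-low. Ptf1a was above background on no array, with levels of -5.11 and -5.60 for Meis1-high, -4.92 and -5.75 for Meis1-low, and -4.08 and -4.05 for Meis1-negative. Of the 15 listed factors, 12 were tested, with 7 lower and 5 higher in Meis1-high than in Meis1-low, and a median of -0.10, which turned to 0.21 without Meis1-high replicate 1. The 5 higher ones were Sox9 (by 0.93), Bhlha15 (0.85), Tcf3 (0.80), Xbp1 (0.40) and Rbpjl (0.18). In Meis1-low, 9 of the 12 were higher than in Meis1-negative and 3 lower, with a median of 1.06, or 0.16 without Meis1-negative replicate 1. Pdx1, needed for pancreas formation, was above background on no Meis1-high array and at least 2.18-fold lower there than in Meis1-low (adjusted p = 0.293 in limma). Nr5a2, a nuclear receptor of acinar cells, came out at least 1.28-fold lower in Meis1-high than in Meis1-low (adjusted p = 0.581 in limma). Its measured difference was -0.01 on slide 1 and -2.76 on slide 2. On slide 1 the Meis1-low levels of Pdx1 (-3.30) and Nr5a2 (-3.38) lay under the dimmest well-measured probe of the Meis1-high array (-3.21). The bounds of these genes therefore rest on slide 2. Both genes entered the test through Meis1-low alone, and both were named by their p in this comparison.

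A list of 18 genes of mature medullary cells holds regulators (Aire, Fezf2, Prdm1), products (Ivl, Hdc, Pcp4) and antigen presentation genes that dendritic cells also express (H2-Aa, Ctss, Cd83, Cd86). Of its 17 tested genes, 16 lay lower in Meis1-high than in Meis1-low, as did 10087 of all 18221 genes. The median was -1.03 (-1.28 on slide 1 and -0.90 on slide 2). On both slides 14 were lower (40.8% of all genes), and 10 were lower without overlap of the arrays (31.1% of all genes). None of the 17 passed the test (smallest adjusted p = 0.288 in limma). Aire had levels of 1.19 and 2.69 for Meis1-high, 3.87 and 4.65 for Meis1-low, and 1.22 and 3.84 for Meis1-negative. Its arrays did not overlap between Meis1-high and Meis1-low, which differed by -2.32 ± 1.0 (SE, 2 arrays per gate; adjusted p = 0.388 in limma). With normexp background correction, Aire was among 232 genes that passed (-2.03, adjusted p = 0.0285 in limma), and no exocrine gene did. With dim signals raised, Aire did not pass (-2.32, adjusted p = 0.295 in limma). Fezf2 differed by -0.73 ± 0.79 (adjusted p = 0.743 in limma), with levels of 2.92 and 1.85 for Meis1-high, 3.48 and 2.73 for Meis1-low, and 0.53 and 2.17 for Meis1-negative. For Cd80 the levels were -0.27 and -0.27 for Meis1-high, 1.92 and 2.05 for Meis1-low, and -2.11 and 1.78 for Meis1-negative, and Meis1-high minus Meis1-low was -2.25 ± 1.17 (adjusted p = 0.474 in limma). Replicate 2 of Meis1-negative was close to Meis1-low for Aire and Cd80, and replicate 1 was not.

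**Figure D4:**
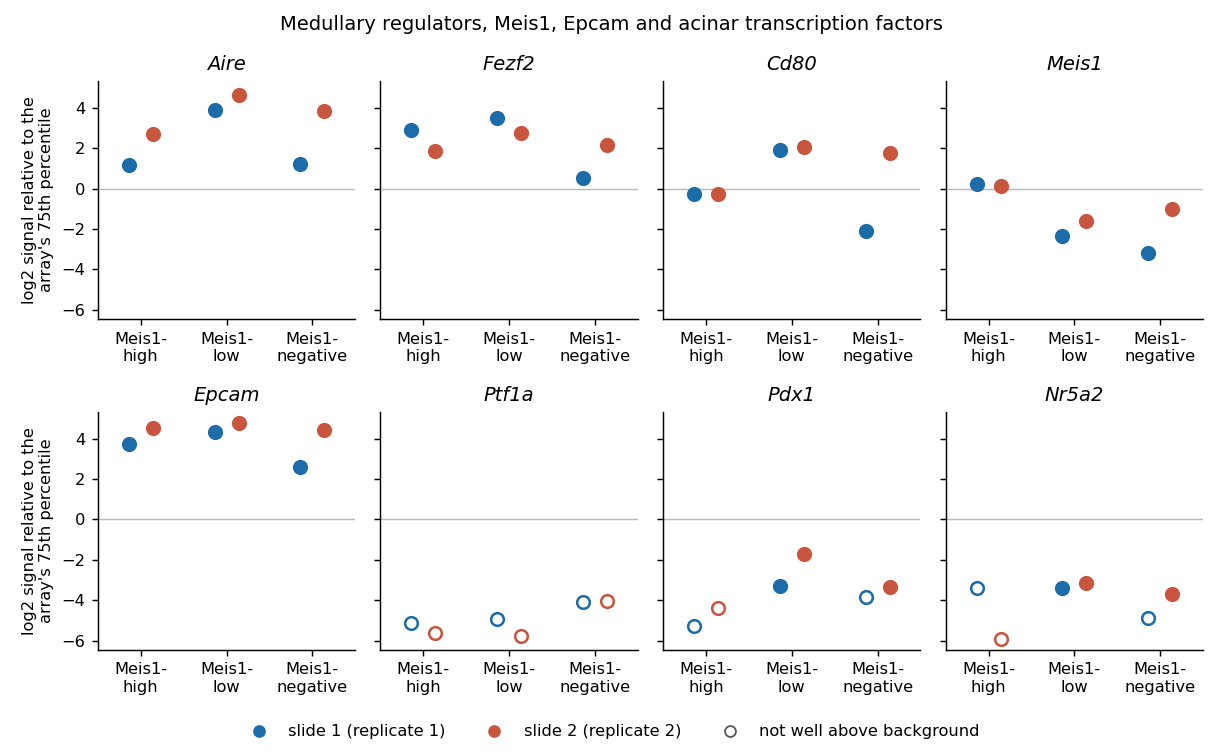
Levels (log2 signal relative to the array's 75th percentile) of 3 medullary regulators, Meis1, Epcam and 3 acinar factors by gate, 1 point per array, blue for slide 1, red for slide 2, open where not well above background. Aire and Cd80 are highest in Meis1-low, Meis1 is highest in Meis1-high, and every Ptf1a point is open.

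By the 6-array profile, the genes most like the mean of the 6 standardised exocrine profiles were Ucp1, Klk1b26, Ly6f, Atp4b, Klf14 and Obp2a. They were ranked by Pearson r over the 6 arrays, from 0.995 to 0.998, and 935 of 18200 genes exceeded 0.9, so the ranking describes these arrays only. Ucp1 is the uncoupling protein of brown fat, Klk1b26 a kallikrein, Atp4b the beta subunit of the gastric proton pump, and Obp2a an odorant-binding protein. Atp4b had levels of -3.21 and -4.26 for Meis1-high, -0.52 and -1.27 for Meis1-low, and -5.51 and -2.16 for Meis1-negative. By the bound, it stood at least 6.63-fold lower in Meis1-high than in Meis1-low (adjusted p = 0.349 in limma). Atp4b was picked by its profile over these arrays, so this difference follows from the choice and is not a separate result. It also entered the test through Meis1-low alone. Ins2, the insulin gene of the pancreatic islet, had levels of -1.07 and -2.16 for Meis1-high, 0.63 and 0.75 for Meis1-low, and -3.08 and -0.18 for Meis1-negative, and differed by -2.31 ± 0.99 (SE, 2 arrays per gate; adjusted p = 0.389 in limma) between Meis1-high and Meis1-low.

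Markers of other cells are given by their summed signals. Summed signals of 9 dendritic cell and macrophage markers were 5.34 and 4.64 times the 75th percentile in Meis1-high, 13.9 and 12.4 for Meis1-low, and 2.12 and 11.6 for Meis1-negative, with 3 and 4 of them above background for Meis1-high, 6 and 7 for Meis1-low, and 3 and 8 for Meis1-negative. Siglech was above background on no array. The 4 mast cell markers summed to 0.454 and 0.911 for Meis1-high, 7.40 and 3.45 for Meis1-low, and 10.3 and 2.11 for Meis1-negative, with 2 and 3, 4 and 3, and 3 and 3 of them above background in the same order. The 6 pan-leukocyte markers summed to 14.2 and 11.1 for Meis1-high, 36.6 and 35 for Meis1-low, and 82.9 and 53.2 for Meis1-negative, with 5 of 6 above background on each Meis1-high array and all 6 on the others. For acinar cells the 6 markers summed to 0.983 and 0.626 for Meis1-high, 2.07 and 1.08 for Meis1-low, and 0.462 and 0.815 for Meis1-negative, and 2 and 5 of them were above background in Meis1-high, 4 and 4 for Meis1-low, and 1 and 4 for Meis1-negative. The defining acinar marker Ptf1a was above background on no array. The 3 erythroid markers on the array summed to 0.515 and 0.673 for Meis1-high, 3.23 and 2.18 for Meis1-low, and 0.826 and 2.53 for Meis1-negative. The 5 fibroblast markers summed to 14.7 and 5.24 for Meis1-high, 7.37 and 3.26 for Meis1-low, and 3.01 and 3.59 for Meis1-negative. For B cells the 4 markers summed to 1.52 and 0.632 for Meis1-high, 2.40 and 1.30 for Meis1-low, and 2.96 and 4.88 for Meis1-negative. The 3 endothelial markers stayed between 0.202 and 0.914 on all 6 arrays. Of the 5 islet markers on the array, the sums were 0.945 and 1.18 for Meis1-high, 10.1 and 5.57 for Meis1-low, and 4.39 and 3.36 for Meis1-negative. The part of the dendritic, mast, leukocyte, erythroid and B cell signals in the levels of the exocrine genes was not tested.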

How the data were processed

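The 6 one-colour mouse arrays, 2 per gate, were analysed. Per the labels, amplification started from 10 ng of RNA and the dye was Cy3. According to the file headers and the submitters' processing notes, Agilent Feature Extraction 9.5.3.1 read the scans, giving an intensity after background subtraction within the array, per the file headers. The authors' deposited value table holds log2 values, scaled per array and with a median of 0 for each probe, whose scaling step is not given in the sources used here, and served as an alternative, as did normexp (offset 50), scaling by quantiles or the median, other filters on dim probes, other ways to combine probes, a signal floor, array weights, the replicate block and each array left out.

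Control and outlier spots were left out, spots averaged per probe, and each array's 75th percentile subtracted on the log2 scale. Probes well above background (13 times the background SD in the file headers) on both arrays of any gate entered the test, and the brightest probe stood for a gene. Gates were compared with limma 3.58.1 in R 4.3.3, 1 mean per gate over 6 arrays, with Benjamini-Hochberg adjustment over 18221 genes. The test was tried on simulated data. The labels do not say that same-numbered pools are paired. Deviations of same-numbered pools from their gate means had correlations over genes of 0.209 (high, low), 0.128 (high, negative) and 0.125 (low, negative), with only 2 numbers per gate. P-values measure the spread between the pools of a gate, which here includes slide and scan, with the variance of each gene drawn toward that of all genes.

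Members and lists were chosen with earlier results of these data known. Named were all members, the 6 other exocrine genes and the acinar factors with the smallest p between Meis1-high and Meis1-low (1 is not reported here), 8 fixed genes and the 6 most like profiles. Figures were drawn with Python 3.11.15, matplotlib 3.10.9 and pandas 2.3.3.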

Additional observations from a re-analysis of the deposited data

How the results depend on the processing

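The 6 exocrine genes kept a lower level in Meis1-high than in Meis1-low and a higher one in Meis1-low than in Meis1-negative under every alternative run, except Clps in the first comparison without Meis1-high replicate 2 (-1.13 to 0.29 over the left-out arrays). Between Meis1-high and Meis1-negative, Ctrb1 ranged from -1.02 to 0.05 with an array left out, and Pnlip turned to 0.06 with normexp background correction. The median of Meis1-high minus Meis1-low was -0.68 with normexp and -0.78 without a filter on dim probes, and -2.11 to -0.90 with an array left out. Meis1 in Meis1-low minus Meis1-negative turned to -0.08 with quantile scaling and ranged from -0.99 to 1.22 with an array left out.

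Where the test called 0 genes (2359, 1917 and 1472 had an unadjusted p under 0.05 in the order Meis1-high against Meis1-low, Meis1-high against Meis1-negative, Meis1-low against Meis1-negative), normexp called 232, 302 and 122. Median scaling called 73 genes in the second comparison and 13 in the third, and a signal floor at the dimmest well-measured probe called 21 in the second. With an array left out, 0 to 947 genes were called in the second and 0 to 1263 in the third, the highest without Meis1-negative replicate 2. Of the exocrine genes, 0 to 1 was called in each of these 2 comparisons, and the 1 was Prss2, whose lone Meis1-negative array then holds a surrogate value not above background and is taken to vary like the other gates. Meis1 itself passed between Meis1-high and Meis1-negative without that replicate (3.38, adjusted p = 0.0457 in limma). The cause of these changes was not tested. Median scaling moved the median of all genes by -0.101 between Meis1-high and Meis1-negative, and the exocrine median relative to it remained at 0.33. With the replicate number as a block, which is also slide and scan, 0 genes and 0 exocrine genes were called in each comparison, with a median of -1.70 for Meis1-high minus Meis1-low, and the pairing changed no call. Pnlip has no value under the filter on 4 arrays, which removes it. Dim probes limit what can be ordered: 3 of the 11 exocrine probes were above background on no array.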
